A study of Mus musculus with 28 samples.

Results

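Classical and nonclassical MHC class I heavy chains and their shared light chain, beta-2 microglobulin, were followed in the mouse tumour line MC38. The 7 genes H2-K1, H2-D1, H2-T23, H2-T22, H2-Q4, H2-M3 and B2m were taken by name, and all 7 have a value in both deposited tables, out of 13395 genes with a value in either. MC38 is a colon adenocarcinoma line of C57BL/6 origin. The in vitro table covers MC38 exposed to TNF, to IFNG, to both cytokines (TNF+IFNG) or to co-culture supernatant, and untreated MC38, with 2 libraries per group. The co-culture table covers MC38 kept with OT1 T cells plus PD1 antibody (anti-PD1), MC38 kept with OT1 T cells plus isotype control (isotype), and MC38 alone, with 3 libraries per group. The cytokine and OT1 treatments lasted 6 hours and no time is recorded for the supernatant. OT1 T cells are CD8 T cells with a transgenic receptor for an ovalbumin peptide held by the H2-K1 product of this strain, and the labels do not say whether these MC38 cells carry ovalbumin. The remaining 9 libraries, of OT1 T cells, were not analysed here.

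A class I molecule is a heavy chain paired with beta-2 microglobulin, which holds a short peptide at the cell surface for CD8 T cells to inspect. Peptides are cut by the proteasome, carried into the endoplasmic reticulum by the TAP transporter and loaded with the help of tapasin. Heavy chain, B2m, TAP and immunoproteasome genes are well known targets of interferon gamma, through factors that include IRF1 and the coactivator NLRC5, and TNF acts on class I promoters through NF-kB.

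Promoter stretches are shown because the class I genes are classically read through a shared set of upstream elements. The chosen 4 are the classical chains H2-K1 and H2-D1, the chain with the largest fold changes against MC38 alone (H2-M3), and the light chain. Each runs from 200 bases upstream to the last base before the RefSeq start site (build GRCm38.p6), 5′ to 3′ on the gene's strand, and capitals mark every motif match that lies wholly inside.
H2-K1, chr17:34000348-34000547, minus strand: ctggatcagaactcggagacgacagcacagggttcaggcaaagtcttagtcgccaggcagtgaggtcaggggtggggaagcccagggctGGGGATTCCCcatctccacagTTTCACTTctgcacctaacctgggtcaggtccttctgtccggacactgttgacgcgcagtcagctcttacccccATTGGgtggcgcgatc
H2-D1, chr17:35262894-35263093, plus strand: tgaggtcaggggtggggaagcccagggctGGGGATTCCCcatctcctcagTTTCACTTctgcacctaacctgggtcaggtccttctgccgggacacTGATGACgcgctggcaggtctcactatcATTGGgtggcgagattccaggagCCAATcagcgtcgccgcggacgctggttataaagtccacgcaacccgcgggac
H2-M3, chr17:37270034-37270233, plus strand: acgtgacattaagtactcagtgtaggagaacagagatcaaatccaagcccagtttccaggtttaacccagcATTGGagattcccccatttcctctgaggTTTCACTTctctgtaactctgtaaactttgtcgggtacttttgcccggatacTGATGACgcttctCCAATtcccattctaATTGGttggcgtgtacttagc
B2m, chr2:122147487-122147686, plus strand: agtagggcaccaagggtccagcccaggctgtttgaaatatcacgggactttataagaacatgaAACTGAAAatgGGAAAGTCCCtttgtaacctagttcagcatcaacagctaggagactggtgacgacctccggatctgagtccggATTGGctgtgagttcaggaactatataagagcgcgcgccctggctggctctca

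The motifs were searched on both strands of the 300-base RefSeq windows, of which 32851 were available. The kappa B pattern (GGG, NN, TT, N and CC in a row) was found in H2-K1, H2-D1, H2-Q4 and B2m, 4 of the 7 genes, and in 4.79% of all windows. An interferon regulatory factor pattern, AANNGAAA, was found in all 7 and in 23.9% of windows. The X2 box TGATGAC was found in H2-D1, H2-T22, H2-Q4 and H2-M3, and in 3.23% of windows. The Y box CCAAT was found in all 7 and in 37.4% of windows. The GAS pattern TTCNNNGAA was found in H2-M3 alone of the 7, upstream of the printed stretch, and in 8.3% of windows. The kappa B and IRF patterns replaced a first pair after the promoters of these genes had been read, so nothing is read from their counts. The first pair, GGG and CC parted by any 5 bases for kappa B and GAANNGAAA for IRF, matched 6 and 4 of the 7 genes and 50.8% and 7.52% of windows. The map of matches shows their spacing.

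**Figure D1:**
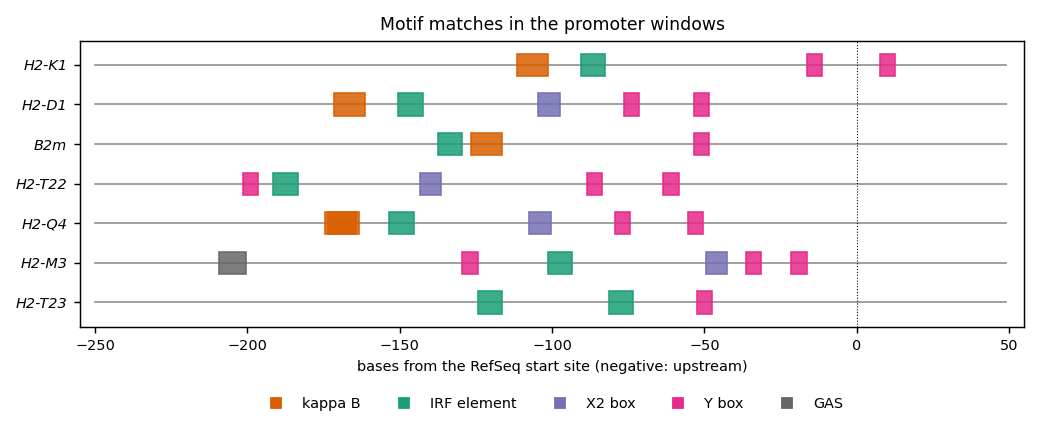
Motif matches on either strand in the promoter window of each gene, against distance in bases from the RefSeq start site. The kappa B and IRF matches of H2-K1, H2-D1 and H2-Q4 lie side by side in the same order, and H2-T22, H2-M3 and H2-T23 have no kappa B match.

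The heavy chain genes lie in the MHC on chromosome 17 and B2m on chromosome 2 (GRCm38, GENCODE M21). H2-K1 spans 33996017 to 34000347 on the minus strand, H2-D1 35262730 to 35267499 on the plus strand, H2-M3 37270220 to 37274484 on the plus strand, and B2m 122147686 to 122153083 on the plus strand of its chromosome. The libraries read the 3' end of transcripts, so the end sequence that other genes share was counted. Among the 50-base words in the last 300 bases of protein-coding transcripts, 49% of those of H2-T22 also occur in H2-T10, a near copy. For H2-K1 the share found in any other gene was 9.54%, for H2-D1 13.5%, for H2-T23 50.6% and for H2-Q4 45.4%, while it was 0 for H2-M3 and B2m. H2-T23 shared most with Rab33b (31.1%) and H2-Q4 with Gm43321 (25.9%), and their words occurred in 75 and 52 other genes. Values of H2-T22, H2-T23 and H2-Q4 are therefore uncertain, because reads from these ends could be split between genes. Words were pooled over a gene's transcripts, 922 for H2-K1 and 251 for H2-T23, so the shares of different genes are not directly comparable. A first search over all transcripts gave 26% for H2-T22, 20.5% for H2-T23, 28.5% for H2-Q4, 14.1% for H2-K1 and 19.4% for H2-D1.

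Depth implied by the steps between low values was 3.36e+06 to 1.12e+07 reads in vitro, lowest in the second TNF+IFNG library, and 3.73e+06 to 1.1e+07 in the co-culture table, lowest in the third library of MC38 alone. That library stands apart: its 11 measured T cell markers (of 14 listed) summed to 39.7 CPM, against 2.84 and 3.68 CPM in the other libraries of MC38 alone. The sums were 37.0, 40.8 and 42.2 CPM with anti-PD1 and 40.7, 47.4 and 47.8 CPM with isotype, and Cd3e, Cd3g and Trac had no value. Labels of the anti-PD1 library numbered 3 contradict each other, since its title and treatment call it untreated, and its description decided its place. Irf1 had 3000 CPM in it, 3200 and 3320 CPM in the other anti-PD1 libraries, 2770 to 3150 CPM with isotype and 255 to 320 CPM in MC38 alone. Its Irf1 level thus lay with the cultured groups, which does not tell anti-PD1 from isotype. The column of 1 isotype library is named OT2. Of 9 colon epithelium markers only 1 had a value in vitro and 5 in co-culture, at 1.61 to 33.3 CPM summed per library in co-culture. None of 10 antigen presenting cell markers was measured in co-culture, and only Lyz2 in vitro. The labels do not say that replicates came from separate cultures, so p-values measure the spread between these libraries. In bulk RNA, fewer cells of a type and less RNA per cell cannot be told apart.

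H2-K1, H2-D1 and B2m made up most of the summed level of the 7 genes. Levels are in CPM, a read count relative to a fixed library total, and were deposited as log2 values. The libraries of a table share a distribution of values. In co-culture, a log2 value of 7.52 lay at percentile 93.8 in MC38 alone library 3, isotype library 2 and anti-PD1 library 3. Levels, shares and folds therefore follow a gene's rank within its library and are not counts scaled by depth alone. They do not scale with length because the kit reads transcript ends. In vitro, H2-K1 supplied 30.2% to 50.7% of the summed CPM of the 7 genes, H2-D1 24.6% to 44.5% and B2m 20.1% to 25.1%. In the co-culture table the shares were 31.4% to 36.5%, 26.7% to 33.2% and 29.2% to 37.5%. H2-T22, which encodes a ligand of some gamma delta T cell receptors, supplied 1.05% to 2.33% over both tables. H2-Q4, H2-M3 (which presents formylated peptides) and H2-T23 (the Qa-1 chain, which shows a leader peptide to the NKG2A receptor) each stayed below 1%. Of class I chains outside the 7, H2-Q7, a Qa-2 chain, lay between B2m and H2-T22, with 102 to 161 CPM in vitro and 183 to 363 CPM in the co-culture table. The tables were normalized apart, so no level is set across them.

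Neither cytokine, nor the pair, nor supernatant moved any of the 7 genes past the threshold, an adjusted p below 0.05 by limma over 12720 genes (Benjamini-Hochberg). The count of members called was 0 for TNF (0.275% of all genes were called), 0 for IFNG (0.354%), 0 for TNF+IFNG (9.02%) and 0 for supernatant (0.448%). At an unadjusted p below 0.05 the members counted 0 with TNF, 1 with IFNG, 2 with TNF+IFNG and 0 with supernatant, where 6.27%, 10.7%, 31.1% and 5.13% of all genes did, so the counts lie near the background. Their median log2 fold change was -0.05 with TNF, -0.58 with IFNG, -0.41 with TNF+IFNG and -0.14 with supernatant, beside 0.013, 0.045, 0.017 and 0.015 over all genes. A median of 7 is the fold of a single gene, with IFNG that of the rare chain H2-Q4. The abundant H2-K1, H2-D1 and B2m were at 0.08, -0.17 and -0.13 with IFNG, and H2-T22, H2-M3 and H2-T23 at -0.59, -0.73 and -0.96. The distribution that the libraries share holds the medians over all genes near 0. With 2 libraries per group, a change of moderate size can be missed. In simulated data for TNF against untreated, 49% of changes of 1 on the log2 scale were recovered. The noise was drawn independently for each value, and changes were put only into genes of higher mean level. The rate therefore does not cover H2-Q4, H2-M3 and H2-T23. For H2-K1 with supernatant, the 95% interval of the log2 fold change ran from -0.29 to 0.79. The lack of calls therefore does not show that the levels were unchanged. The folds ran from -0.23 ± 0.15 (B2m) to 0.68 ± 1.25 (H2-T23) with TNF, from -0.96 ± 1.25 (H2-T23) to 0.08 ± 0.24 (H2-K1) with IFNG, from -0.94 ± 0.59 (H2-M3) to 0.22 ± 1.25 (H2-T23) with TNF+IFNG and from -0.88 ± 1.25 (H2-T23) to 0.25 ± 0.24 (H2-K1) with supernatant.

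H2-K1, whose product presents peptide to OT1 cells, had 553 and 489 CPM with TNF, 508 and 458 CPM with IFNG, 448 and 250 CPM with TNF+IFNG, 534 and 551 CPM with supernatant and 436 and 475 CPM untreated. The second TNF+IFNG library was the lowest and also the shallowest in the table, and the other groups overlapped or lay close together. Its log2 fold change was 0.08 ± 0.24 (limma SE, n = 2 each) with IFNG and -0.45 ± 0.24 with TNF+IFNG (adjusted p 0.908 and 0.232). H2-D1, the other classical chain, had 356 and 350 CPM with TNF, 309 and 349 CPM with IFNG, 236 and 369 CPM with TNF+IFNG, 373 and 267 CPM with supernatant and 368 and 371 CPM untreated. The TNF+IFNG libraries therefore disagreed in opposite directions for the classical chains: the first was the higher in H2-K1 and the lower in H2-D1, the second the reverse. B2m had 246 and 217 CPM with TNF, 264 and 234 CPM with IFNG, 214 and 194 CPM with TNF+IFNG, 281 and 250 CPM with supernatant and 250 and 294 CPM untreated. Its TNF+IFNG libraries lay below every other library, with a log2 fold change of -0.41 ± 0.15 that did not pass (adjusted p 0.0998).

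H2-T22 gave the nearest approach to a call. It had 16.4 and 15.5 CPM with TNF, 11.7 and 11.8 CPM with IFNG, 9.64 and 9.74 CPM with TNF+IFNG, 18.0 and 12.4 CPM with supernatant and 14.6 and 21.6 CPM untreated. Both IFNG groups lay below both untreated libraries. The log2 fold change was -0.59 ± 0.24 with IFNG (adjusted p 0.449) and -0.87 ± 0.24 with TNF+IFNG (adjusted p 0.0565). Under a stricter filter on low values it passed, with fewer genes tested. The near copy H2-T10 averaged 8.86 ± 0.596 CPM with IFNG and 7.62 ± 0.644 CPM with TNF+IFNG, against 12.9 ± 3.22 CPM untreated (SD, n = 2 each).

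The 3 rarest chains sat close to the counting floor. H2-Q4 spanned 1.99 to 6.76 CPM over the 10 libraries and H2-M3 0.979 to 4.1 CPM, and none of their folds passed. H2-T23 lay 0 to 10 steps, each close to 1 read, above the lowest value in every in vitro library, with 0.0826 and 1.01 CPM in the supernatant libraries, so its folds rest on single reads. Adding TNF to IFNG gave no called member (background 0.236%). H2-K1 was at -0.53 ± 0.24 (adjusted p 0.373), H2-D1 at -0.15 ± 0.22, B2m at -0.28 ± 0.15, H2-T22 at -0.28 ± 0.24, H2-M3 at -0.22 ± 0.59, H2-Q4 at 0.54 ± 0.43 and H2-T23 at 1.17 ± 1.25. The interaction, which asks whether both cytokines together differ from the sum of each, gave 0 as well (background 0.0157%), with H2-K1 at -0.72 ± 0.33 (adjusted p 0.962) and the other 6 genes between -0.17 (H2-M3) and 0.49 (H2-T23).

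**Figure D2:**
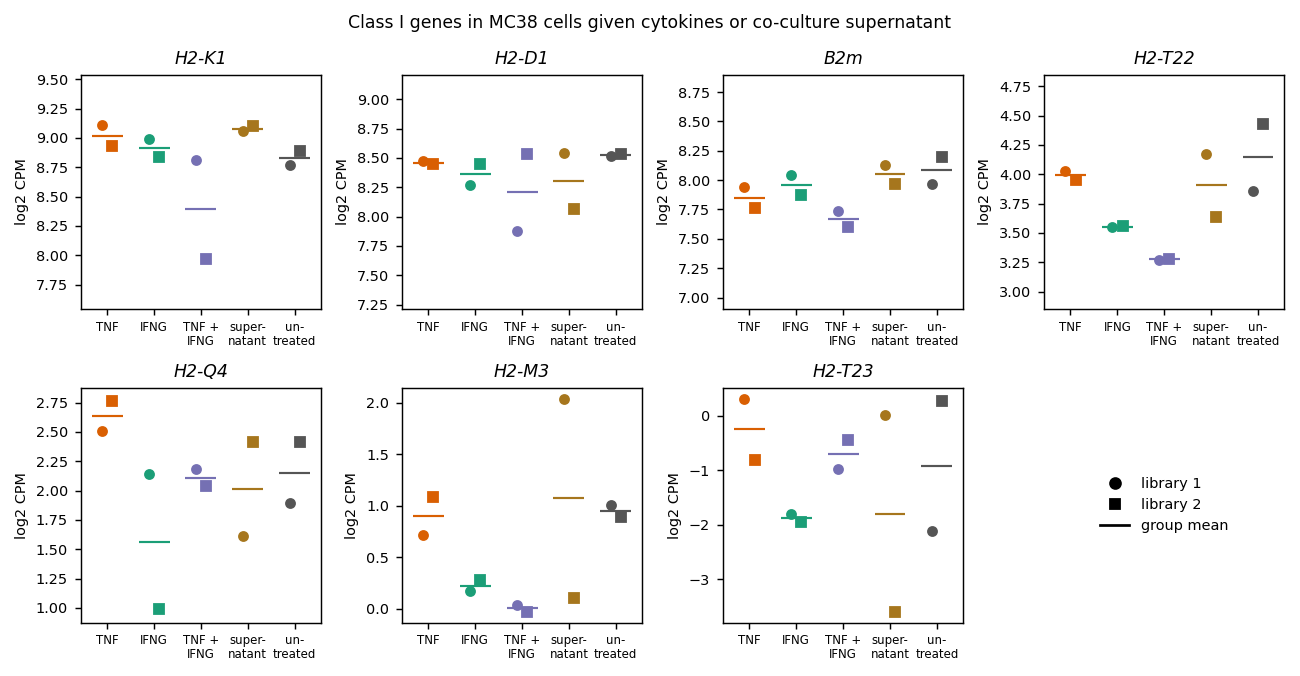
Level (log2 CPM) of each class I gene in the in vitro libraries, each marker a library and each bar a group mean (n = 2). Untreated H2-D1 libraries coincide at 368 and 371 CPM, whereas H2-K1 in the second TNF+IFNG library is at 250 CPM.

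Some regulators of the class I genes rose in the same libraries, 2 of 12 with each of TNF, IFNG and supernatant and 5 of 12 with TNF+IFNG. Irf1, which encodes an interferon-regulated transcription factor, averaged 1110 ± 40.9 CPM with IFNG and 133 ± 2.21 CPM untreated (SD, n = 2 each; log2 fold change 3.06 ± 0.12, adjusted p 1.5e-05). Nlrc5, the class I coactivator, rose by 2.30 ± 0.37 and the transporter subunit Tap1 by 2.11 ± 0.16 on the log2 scale. The other transporter subunit, Tap2, went the other way, with 8.55 and 10 CPM with IFNG and 35.2 and 58.8 CPM untreated. It had 6.58 and 15.7 CPM with TNF+IFNG, and its supernatant libraries disagreed (50.9 and 8.44 CPM). No loading gene was called lower in these comparisons. Of 12 regulators 2 passed with IFNG, of 8 loading genes 1, of 5 immunoproteasome genes 0 and of 11 other class I chains 0. With TNF+IFNG the counts were 5 of 12, 3 of 8, 2 of 5 and 0 of 11, led by Irf1 at 3.44, Nlrc5 at 2.47, Tap1 at 2.18 and Rfx5, a subunit of a class I and II promoter-binding complex, at 2.13. With TNF alone, Irf1 (2.47) and Rfx5 (1.80) passed. With supernatant, 2 of 12 regulators and 1 of 8 loading genes passed, namely Irf1 (3.18 ± 0.12), Nlrc5 (2.38 ± 0.37) and Tap1 (2.11 ± 0.16). All of the called genes were higher than untreated. Adding TNF to IFNG raised Rfx5 alone of the listed genes (1.57 ± 0.18), and the interaction called only Irf1 among them (-2.08 ± 0.17).

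In co-culture, all 7 genes had positive folds over MC38 alone, and in the isotype group 4 of them passed the threshold: H2-K1, H2-D1, H2-Q4 and H2-M3. In the background, 13.9% of 12707 genes were called, 7.64% being higher. With anti-PD1, 3 passed: H2-D1, H2-T22 and H2-M3 (background 16.1%, 8.42% higher). The median log2 fold change of the members was 0.54 with isotype and 0.53 with anti-PD1, against -0.056 and -0.059 over all genes. With isotype that median was the fold of H2-T23, a rare chain that did not pass (0.54 ± 0.45), and with anti-PD1 that of H2-D1. Here too the shared distribution holds the medians over all genes near 0 in both comparisons. These 2 comparisons share the MC38 alone libraries.

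H2-K1 had 805, 781 and 781 CPM with anti-PD1, 829, 861 and 864 CPM with isotype and 694, 680 and 583 CPM in MC38 alone. The groups did not overlap. Its log2 fold change was 0.28 ± 0.10 with anti-PD1 (adjusted p 0.0807) and 0.39 ± 0.10 with isotype (adjusted p 0.0252). H2-D1 had 848, 813 and 687 CPM with anti-PD1, 719, 664 and 792 CPM with isotype and 542, 540 and 538 CPM in MC38 alone, and both cultured groups lay above every library of MC38 alone. It rose by 0.53 ± 0.11 with anti-PD1 (adjusted p 0.00989) and 0.42 ± 0.11 with isotype (adjusted p 0.0305). B2m had 834, 788 and 735 CPM with anti-PD1, 742, 898 and 709 CPM with isotype and 614, 757 and 563 CPM in MC38 alone. Its groups overlapped, and log2 fold changes of 0.29 ± 0.14 and 0.28 ± 0.14 did not pass (adjusted p 0.173 and 0.204).

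H2-T22 had 56.7, 47.9 and 53.2 CPM with anti-PD1, 47.2, 44.4 and 42.0 CPM with isotype and 38.0, 34.1 and 20.7 CPM in MC38 alone, and the groups did not overlap. It rose by 0.81 ± 0.20 with anti-PD1 (adjusted p 0.0238), and with isotype the fold was 0.57 ± 0.20 (adjusted p 0.0955). H2-M3, the largest fold of the 7, had 8.32, 7.54 and 13.3 CPM with anti-PD1, 7.66, 4.34 and 4.63 CPM with isotype and 2.87, 2.01 and 0.79 CPM in MC38 alone. The rise was 2.51 ± 0.46 with anti-PD1 and 1.69 ± 0.46 with isotype (adjusted p 0.00507 and 0.0365), on counts that reach 1 read above the floor in the third library of MC38 alone. H2-Q4 had 10.6, 5.09 and 12.8 CPM with anti-PD1, 10.0, 11.2 and 11.6 CPM with isotype and 5.69, 4.88 and 1.84 CPM in MC38 alone. It rose by 1.56 ± 0.44 with isotype (adjusted p 0.0431), and 1.25 ± 0.44 with anti-PD1 did not pass (adjusted p 0.0847). H2-T23 overlapped throughout, at 1.48, 3.86 and 3.65 CPM with anti-PD1, 2.83, 3.08 and 2.63 CPM with isotype and 1.96, 1.23 and 3.08 CPM in MC38 alone.

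**Figure D3:**
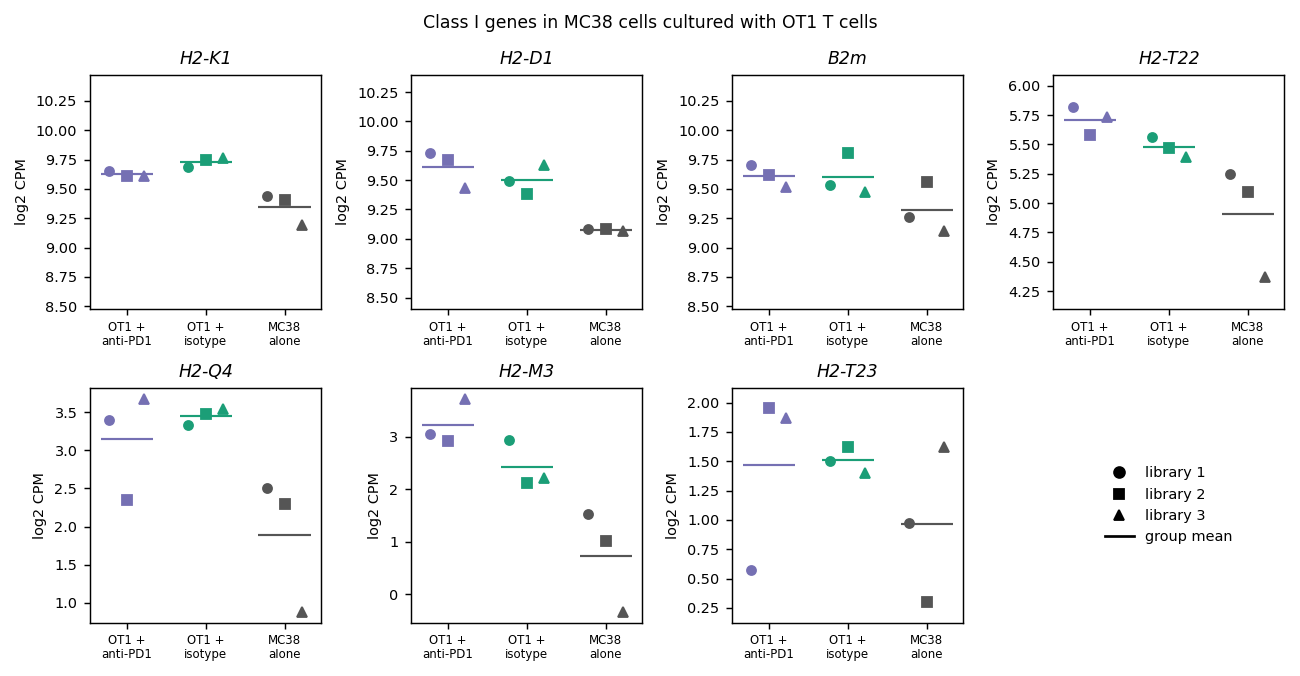
Level (log2 CPM) of each class I gene in the 9 co-culture table libraries, each marker a library and each bar a group mean (n = 3). The third library of MC38 alone is lowest in its group for every gene but H2-T23.

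The isotype calls depended on the fit and on single libraries, as all 4 missed the threshold with no intensity trend (adjusted p 0.0586 to 0.0764) or with only the compared groups fitted (0.052 to 0.0862). Without the third MC38 alone library, 3 members remained called with isotype (H2-K1, H2-D1 and H2-M3, with log2 fold changes of 0.31, 0.42 and 1.16 and adjusted p of 0.037, 0.0416 and 0.0418) while with anti-PD1 H2-D1, H2-T22 and H2-M3 did (0.53, 0.54 and 1.97, adjusted p 0.0142, 0.0112 and 0.00311). Leaving out this library and the third anti-PD1 library together, a setting chosen after seeing the data, gave 4 and 3 members. With isotype, the count was 0 without isotype library 1 or 3, 1 without isotype library 2 (H2-D1) or MC38 alone library 2 (H2-K1), 2 without anti-PD1 library 1 (H2-K1 and H2-D1) or 2 (H2-K1 and H2-Q4), and 3 without anti-PD1 library 3 (H2-K1, H2-D1 and H2-M3). It stayed at 4 without MC38 alone library 1, but H2-D1 lost its call (adjusted p 0.0661) and H2-T22 gained one (0.0426). With anti-PD1, H2-T22 missed the threshold without any 1 of the 3 anti-PD1 libraries (adjusted p 0.0812, 0.0514 and 0.0742) and with only the compared groups fitted (0.0632), H2-Q4 passed without anti-PD1 library 2 (0.0464), and H2-D1 and H2-M3 passed in every refit that left out 1 library. T cell transcripts moved with the cultured groups, and the part they play in the class I differences was not tested. The library of MC38 alone with a T cell sum of 39.7 CPM was also the shallowest of its table. It had the lowest class I sum, 1711 CPM, beside 1899 and 2019 CPM in the other 2, 2286 to 2565 CPM with anti-PD1 and 2357 to 2486 CPM with isotype. The bar plot of both sums shows this.

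**Figure D4:**
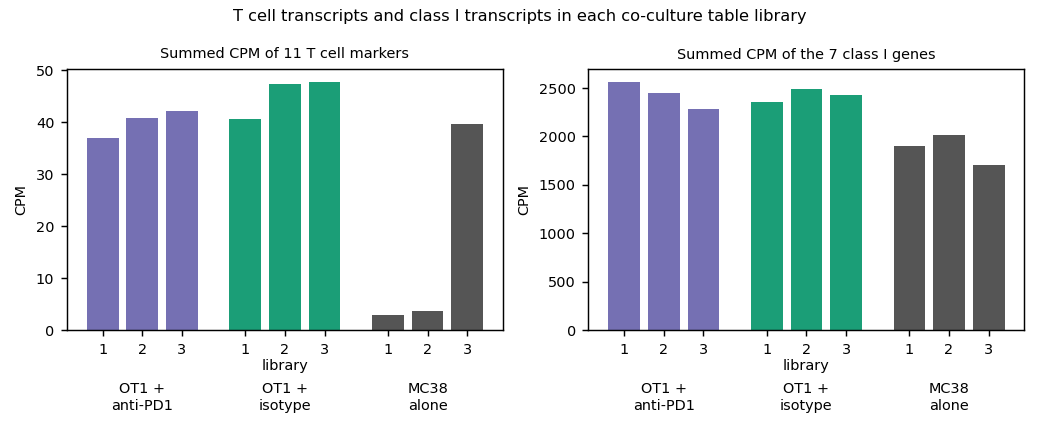
Summed CPM of 11 T cell markers (left) and of the 7 class I genes (right), one bar per library. The third library of MC38 alone reaches 39.7 CPM of T cell markers, within the range of the cultured groups (37.0 to 47.8), and has the lowest class I sum. It is also the shallowest library shown.

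Anti-PD1 against isotype called no member, as no gene was called at all (background 0%; limma, 347 of 12707 genes and 0 of the 7 at an unadjusted p below 0.05). The log2 fold change of H2-K1 was -0.11, with a 95% interval from -0.33 to 0.11, that of H2-D1 0.11 (-0.14 to 0.35), that of B2m 0.01 (-0.29 to 0.31), that of H2-T22 0.24 (-0.22 to 0.69), that of H2-M3 0.81 (-0.22 to 1.84), that of H2-Q4 -0.31 (-1.29 to 0.68) and that of H2-T23 -0.05 (-1.06 to 0.97). Intervals this wide do not show that the antibodies act alike.

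The immunoproteasome genes and some of the peptide loading and regulator genes also rose in the cultured groups. With isotype against MC38 alone, 5 of 8 loading genes, 5 of 5 immunoproteasome genes, 6 of 12 regulators and 1 of 10 other class I chains were called higher, and none lower. The counts with anti-PD1 against MC38 alone were 5, 5, 6 and 1 of the same lists. The median log2 fold change of the 10 other class I chains was 0.54 with isotype and 0.54 with anti-PD1. Those of the 7 genes were 0.54 and 0.53, so a rise of that size was not particular to them. The 3 loading genes that did not pass, named after their values were seen, encode chaperones or folding enzymes of the endoplasmic reticulum and were Calr (-0.25 ± 0.18 with anti-PD1 and -0.20 ± 0.18 with isotype), Canx (-0.29 ± 0.12 with anti-PD1 and -0.21 ± 0.12 with isotype) and Pdia3 (-0.41 ± 0.16 with anti-PD1 and -0.30 ± 0.16 with isotype). With anti-PD1 the largest folds were Irf1 (3.44 ± 0.11), Tap1 (2.74 ± 0.19), Tap2, the partner of Tap1 (2.70 ± 0.24), and Nlrc5 (2.53 ± 0.25), and with isotype Irf1 (3.35 ± 0.11), Tap1 (2.86 ± 0.19), Nlrc5 (2.81 ± 0.25) and Tapbpl, a tapasin relative (2.30 ± 0.18). The other class I chain that passed was Procr, the endothelial protein C receptor, which is class I-like. The plot of folds sets these lists beside the 7 genes.

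**Figure D5:**
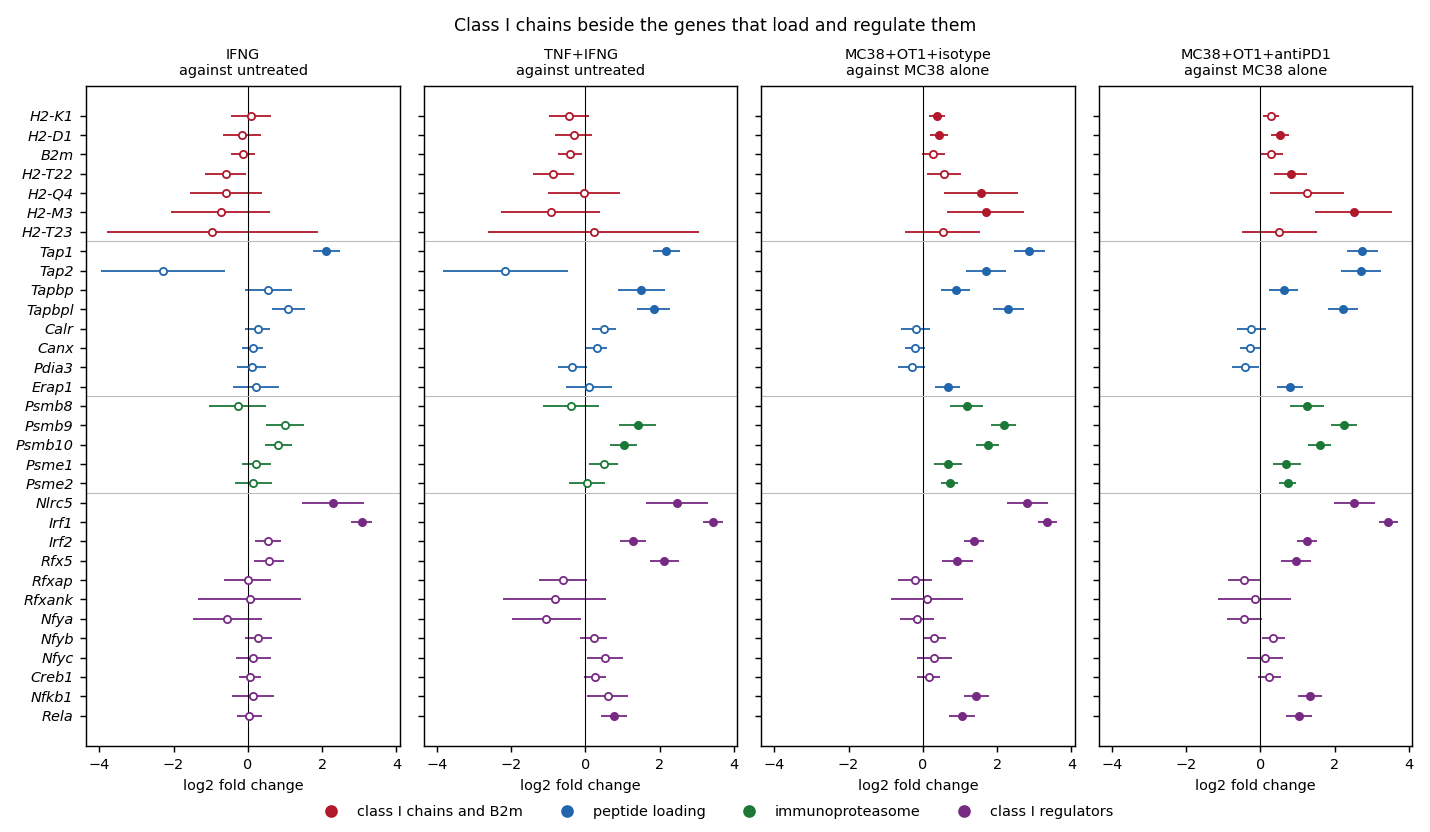
Log2 fold change with 95% interval (limma) of the class I chains and B2m, peptide loading, immunoproteasome and regulator genes in 4 comparisons, with filled points passing adjusted p below 0.05. The 7 class I genes have open points in vitro, and in co-culture their points sit right of 0 and left of those of Irf1, Tap1 and Nlrc5. With anti-PD1 the H2-M3 point lies close to that of Nlrc5, and its interval is wide (1.48 to 3.54).

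The genes most alike in pattern were found by Pearson correlation over the 19 libraries, after subtracting each table's mean, among 12165 genes tested in both tables. They were Ubqln1, Serpinf1 and Papd4 (each 0.89) for H2-K1, Mbd2 (0.91), Odc1 and Kbtbd2 (both 0.90) for H2-D1, and Dse (0.87), Msn (0.86) and Plpp6 (0.85) for B2m. For H2-T22 they were Lzts2, Mfsd10 (both 0.93) and Plscr1 (0.92), and for H2-M3 Prkg2 (0.91), Vps54 and Snrpa1 (both 0.90). For H2-Q4 they were Mesdc1 (0.88), Tbc1d10a (0.85) and Dusp5 (0.84), and for H2-T23 Gm6060, Prkcd (both 0.77) and Gm11628 (0.73). The libraries share groups, depth and normalization, so these values describe likeness only. Within the co-culture table H2-K1 and H2-D1 correlated at 0.78 and H2-T22 and H2-M3 at 0.96, while H2-K1 and H2-D1 in vitro were at -0.21.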

How the data were processed

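The study measured RNA of MC38 cells with QuantSeq 3' libraries, per the labels' protocols. Tools listed in the submitters' processing notes are cutadapt 1.7, FastQC, HISAT2, Subread, featureCounts and limma, and builds are GRCm38 and mm10. Order, settings and strand use are not given in the sources used here. In the authors' tables values are log2 CPM, a unit read from the values themselves, in 2 tables normalized apart. Within each table the libraries share a distribution of values. All groups of a table were fitted with limma 3.58.1 in R 4.3.3 (empirical Bayes with intensity trend). A gene was tested where its log2 value reached 0 in a smallest group's number of libraries, and p-values are 2-sided, adjusted by Benjamini-Hochberg over 12720 genes in vitro and 12707 in co-culture, at a threshold of 0.05. The script was tested on simulated data. The 7 members and all lists were chosen with earlier results of these data known. All members are given in every comparison, by value or by the range of their folds, with up to 4 genes with the largest folds past the threshold over the other lists, and the 3 genes most alike. Comparisons were repeated under other filters, scalings and left-out libraries. In all, 2 sets of promoter patterns and 2 sets of transcripts for shared ends were tried, the second of each after seeing the first. A gene of the regulator list is not reported here. Python 3.11.15 drew the figures. Fewer reads widen the error, and values near the lowest step are set by single reads.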

Additional observations from a re-analysis of the deposited data

How the results depend on the processing

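None of 248 member folds over MC38 alone, taken from 18 other settings, reversed in direction, but the calls moved. Some of these settings, such as no intensity trend, cannot change a fold. For isotype against MC38 alone, where 4 members passed, the count was 0 with no intensity trend and 0 with only the compared groups fitted, and 0 to 4 when 1 library was left out. With a replicate block it was 1 (H2-M3). Correlations of the deviations of same-numbered libraries ran from -0.43 to 0.11 in vitro and from -0.11 to 0.15 in co-culture, not above 0.1 in every pair, so the numbers were not taken as pairs. For anti-PD1 against MC38 alone, where 3 passed, the count was 5 when re-centred on housekeeping genes (H2-K1, H2-D1, H2-T22, H2-M3 and B2m), a scaling that moved the median of all genes to 0.211 from -0.059, and 2 to 3 when 1 library was left out. For TNF+IFNG against untreated, where none passed, the count was 1 under a stricter filter (H2-T22, adjusted p 0.0477, fewer genes being tested) and 0 to 1 when 1 library was left out, H2-K1 passing without TNF+IFNG library 1 (adjusted p 0.0204) and H2-T22 without supernatant library 1 or 2 (0.0319 and 0.0313). For TNF+IFNG against IFNG the count was 0 to 1, H2-K1 again passing without TNF+IFNG library 1 (adjusted p 0.0363). Both H2-K1 calls rest on 1 TNF+IFNG library, the shallowest in the table, assumed to vary like the other groups, and without it instead H2-K1 was at -0.02 against untreated and -0.11 against IFNG. The cause was not tested for the other moves. The stricter filter removed H2-M3 and H2-T23 from both tables and H2-Q4 in vitro, and H2-T23 gave no value with only the compared groups fitted in 3 cytokine comparisons. Of 1107 single folds under another setting, 44 reversed, none of them called. With all libraries kept, H2-T23 with TNF+IFNG was -0.03 with a pseudocount of 1 CPM, and after re-centring on housekeeping genes H2-Q4 with TNF+IFNG was 0.04, B2m with supernatant 0.06 and H2-T23 for anti-PD1 against isotype 0.01. Folds that reversed when 1 library was left out are given as their lowest and highest values. For TNF against untreated these were H2-T23 (-0.52 to 1.88), H2-M3 (-0.23 to 0.13) and H2-T22 (-0.44 to 0.13). For IFNG against untreated these were H2-T23 (-2.16 to 0.24). For TNF+IFNG against untreated these were H2-T23 (-0.98 to 1.42) and H2-Q4 (-0.30 to 0.22). For supernatant against untreated these were H2-T23 (-2.68 to 0.93), H2-T22 (-0.53 to 0.04), H2-Q4 (-0.54 to 0.26), B2m (-0.15 to 0.09), H2-M3 (-0.85 to 1.09) and H2-D1 (-0.47 to 0.01). For TNF+IFNG against IFNG these were H2-Q4 (-0.03 to 1.12) and H2-D1 (-0.48 to 0.17). For TNF by IFNG interaction these were H2-T22 (-0.41 to 0.16), B2m (-0.17 to 0.07), H2-T23 (-0.71 to 1.69), H2-Q4 (-0.51 to 0.64), H2-M3 (-0.35 to 0.02) and H2-D1 (-0.41 to 0.23). For MC38+OT1+antiPD1 against MC38+OT1+isotype these were B2m (-0.06 to 0.11), H2-T23 (-0.29 to 0.40) and H2-Q4 (-0.58 to 0.09).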
